A study of Mus musculus with 6 samples.

Results

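The potassium channel genes of the mouse were followed in RNA of whole testis from WT and Trf2-/- mice. They were taken from the table of gene counts as every protein-coding gene whose symbol starts with Kcn followed by a letter, except Kcnu1, which gave 93 of the 26743 genes in the table. These 93 genes carry 91 symbols, because Kcnb2 and Kcnh8 each appear with 2 gene identifiers. Enough reads for a test were present for 56 of them. In Trf2-/- testis 9 of the 56 fell, 16.1% beside 20.2% of all 16924 genes tested, and 4 rose, 7.14% beside 11.2%. The falls included Kcnmb4, a beta subunit of the BK channel, and Kcnj9, a G protein-gated inward rectifier subunit with the highest level per gene length of these 93 genes in WT testis.

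Testes of 3 WT and 3 Trf2-/- mice were compared at post-natal day 21, with 1 library of total RNA per mouse. Trf2, whose gene symbol is Tbpl1, is a relative of the TATA-binding protein. Trf2-/- males are sterile, and their spermatogenesis stops as round spermatids begin to elongate. At this age the first wave of germ cells has reached the round spermatid stage, so spermatids are few. No other allele or treatment was labelled, and how the null allele was made is not given in the sources used here. The labels do not say whether the mice of a genotype were littermates. Each p-value sets the genotype difference against the spread between mice of the same genotype, among these 6 mice. That spread was estimated with information shared over all genes tested.

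Potassium channels let potassium ions leave or enter the cell along their gradient and set the resting membrane potential. Pore subunits fall into voltage-gated channels, channels opened by calcium or sodium, inward rectifiers and tandem-pore-domain leak channels, and accessory subunits tune the gating, ligand sensitivity or trafficking of a given pore. Silent modifiers are relatives of voltage-gated subunits that form no channel alone and change the properties of Kv2 channels. In sperm, potassium efflux hyperpolarises the membrane during capacitation. In whole testis the same genes can be transcribed in Sertoli, Leydig, peritubular, vascular and blood cells.

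Library totals ranged from 21582123 to 29859347 counts in WT and from 15187062 to 24530489 in Trf2-/- mice. A gene with 3 counts stood at 0.105 to 0.144 CPM (counts scaled to the effective library size) in WT libraries and at 0.119 to 0.190 CPM in Trf2-/- libraries, and these floors cover counting error only. Tbpl1, the targeted gene, fell from 295 ± 12.5 to 61.0 ± 4.60 CPM (SD, n = 3 each), with a log2 fold change of -2.27 (SE 0.06) and an adjusted p of 1.18e-06 by edgeR's quasi-likelihood test. Markers of spermatids were also lower. Of 6 round spermatid markers 4 fell, and their summed level was 10.6 to 12.3 CPM in WT and 5.88 to 8.32 CPM in Trf2-/- mice. Of 5 elongating spermatid markers 2 could be tested and both fell. The summed level of the 5 was 4.22 to 5.25 CPM in WT and 0.253 to 0.815 CPM in Trf2-/- mice. It came almost wholly from the 2 tested, since the rest had at most 4 counts in any mouse of either genotype. These values do not show that elongating cells were present at this age. The 6 Sertoli markers summed to 389 to 415 CPM in WT and 453 to 500 CPM in Trf2-/- mice, with 3 higher, and the 5 macrophage markers summed to 149 to 172 and 170 to 327 CPM, with 3 higher. Markers of spermatocytes were mixed, with 2 lower and 3 higher of 7, and none of the 5 Leydig markers passed the test. In such bulk RNA, fewer cells of a type and less RNA per cell cannot be told apart, and the part of cell composition in the values that follow was not tested.

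Promoter windows of 4 subunits with high levels in WT testis are shown because they set the members that fell beside one that did not. They are those of Kcnmb4, Kcnj9 and Kcng4, which fell, and of Kcnma1, the pore that Kcnmb4 joins, for which no difference was detected. These 4 were chosen after their values were seen. Each is 280 bases from RefSeq on GRCm38.p6, from 250 bases before the annotated start to the first 30 transcribed bases, written 5′ to 3′ on the gene's strand, which is the minus strand for all 4. The windows lie at chr10:116473494-116473773 for Kcnmb4, chr14:24004176-24004455 for Kcnma1, chr1:172329293-172329572 for Kcnj9 and chr8:119635651-119635930 for Kcng4. Capitals mark matches, on either strand, to the TATA box motif TATAAA, the GC box motif GGGCGG, seen as CCGCCC from the other strand, or the cyclic AMP response element TGACGTCA.
Kcnmb4: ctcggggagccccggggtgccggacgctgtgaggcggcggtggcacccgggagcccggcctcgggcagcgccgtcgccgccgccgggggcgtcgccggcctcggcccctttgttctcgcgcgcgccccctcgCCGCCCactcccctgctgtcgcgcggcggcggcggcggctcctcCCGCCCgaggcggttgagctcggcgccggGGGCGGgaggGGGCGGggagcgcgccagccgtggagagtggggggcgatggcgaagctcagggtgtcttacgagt
Kcnma1: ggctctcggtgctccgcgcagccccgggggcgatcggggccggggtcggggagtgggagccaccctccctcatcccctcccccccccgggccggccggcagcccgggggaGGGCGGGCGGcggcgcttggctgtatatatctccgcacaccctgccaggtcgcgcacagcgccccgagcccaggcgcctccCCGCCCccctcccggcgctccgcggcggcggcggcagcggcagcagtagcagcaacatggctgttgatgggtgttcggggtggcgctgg
Kcnj9: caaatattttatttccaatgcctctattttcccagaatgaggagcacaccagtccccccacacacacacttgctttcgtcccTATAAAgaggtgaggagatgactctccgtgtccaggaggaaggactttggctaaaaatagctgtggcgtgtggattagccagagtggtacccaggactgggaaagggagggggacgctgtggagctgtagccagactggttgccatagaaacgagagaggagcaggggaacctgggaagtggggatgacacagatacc
Kcng4: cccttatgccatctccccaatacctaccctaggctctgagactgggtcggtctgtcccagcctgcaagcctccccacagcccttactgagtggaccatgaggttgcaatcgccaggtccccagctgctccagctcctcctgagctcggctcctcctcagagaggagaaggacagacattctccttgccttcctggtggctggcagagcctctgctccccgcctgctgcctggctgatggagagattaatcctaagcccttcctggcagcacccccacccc
Both BK subunits had windows rich in G and C, at 80.7% for Kcnmb4 with 4 GC boxes and 77.9% for Kcnma1 with 3 GC boxes, of which neighbouring matches can overlap. The window of Kcnj9 held 52.1% G and C and a single TATAAA whose position was -168 from the annotated start, and that of Kcng4 held 61.4% and no match. Over 32851 RefSeq windows of the same length, 34.7% held a GC box, 13.1% TATAAA and 1.74% TGACGTCA. Windows were found for 68 of the 91 symbols, 93 windows in all, of which 47.3% held a GC box, 5.38% TATAAA and 0 TGACGTCA. A match is a description of letters in the window, and the 3 genes that fell shared none of the 3 motifs.

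A gene was called expressed when each WT mouse had at least 10 counts, and 52 of the 93 genes met this. Levels were compared between genes as RPKM, which is CPM divided by the tabulated gene length in kilobases. On that scale 6 genes had a WT mean of 5 or more, 19 lay between 1 and 5, 32 between 0.1 and 1, and 36 under 0.1. The median WT level of the 56 tested genes was 0.752 RPKM, beside 6.50 RPKM over all 16924 genes tested, so the typical potassium channel gene tested lay well below the typical gene.

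Of 32 voltage-gated pores the testis expressed 15, among them Kcna3, Kcna4, Kcna6, Kcna7, Kcnc1, Kcnc2, Kcnd2, Kcnd3, Kcnh1, Kcnh2, Kcnh3, Kcnq3 and Kcnq5. Silent modifiers were expressed broadly, 8 of 10, as Kcng1 to Kcng4, Kcns1 to Kcns3 and Kcnv2. Of 12 accessory genes of voltage-gated channels 9 were expressed, namely Kcnab1 to Kcnab3, Kcnip1 to Kcnip4, Kcne3 and Kcne4. Channels opened by calcium or sodium were represented by Kcnma1, Kcnn1 to Kcnn3, Kcnt1 and Kcnt2, 6 of 7, and the 4 BK beta subunits by Kcnmb4 alone. Inward rectifiers numbered 6 of 15 (Kcnj1, Kcnj2, Kcnj4, Kcnj8, Kcnj9 and Kcnj10) and tandem-pore-domain channels 6 of 12 (Kcnk1, Kcnk2, Kcnk3, Kcnk5, Kcnk6 and Kcnk13). Kcnrg, which encodes a regulator of voltage-gated channels rather than a pore, was expressed at 0.629 RPKM.

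The remaining 41 genes were not expressed by this measure. Of them, 4 passed the filter for testing, Kcna5, Kcnj11, Kcnh6 and Kcnq1, and none was called. A further 23 had more than 3 counts in some mouse and at most 16 in any. The other 14 had no more than 3 counts in every mouse, namely Kcnk4, Kcne2, Kcnj3, Kcnj13, both entries of Kcnh8, Kcnk18, Kcnk7, Kcnf1, Kcnmb2, both entries of Kcnb2, Kcna10 and Kcnh7. At this depth these transcripts were at or below the floor in both genotypes, and no comparison was made for them.

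The 10 genes with the highest WT level were led by Kcnj9 at 13.6 ± 1.64 RPKM (SD, n = 3). Kcnd3, a Kv4 pore of the transient A-type current, followed at 8.44 ± 0.464 RPKM and Kcnmb4 at 7.96 ± 0.315 RPKM, and the mice of these neighbours overlapped. Kcnh2, the ERG channel pore, stood at 7.48 ± 0.226 RPKM. Kcnab1, a cytoplasmic beta subunit of Kv1 channels, and Kcng4, a silent modifier, were at 5.91 ± 0.222 and 5.90 ± 0.341 RPKM and could not be ordered. Kcnma1, the BK pore, was at 4.71 ± 0.508 RPKM. Kcnk6, a tandem-pore-domain channel, Kcnip3, a calcium-binding partner of Kv4 pores, and Kcnk13, another tandem-pore-domain channel, were at 2.77 ± 0.185, 2.74 ± 0.420 and 2.74 ± 0.0264 RPKM, with overlapping mice. In Trf2-/- testis Kcnd3 was the highest at 10.7 ± 1.01 RPKM and Kcnh2 the next at 8.60 ± 0.324 RPKM, while Kcnj9 stood 4th and Kcnmb4 11th.

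**Figure D1:**
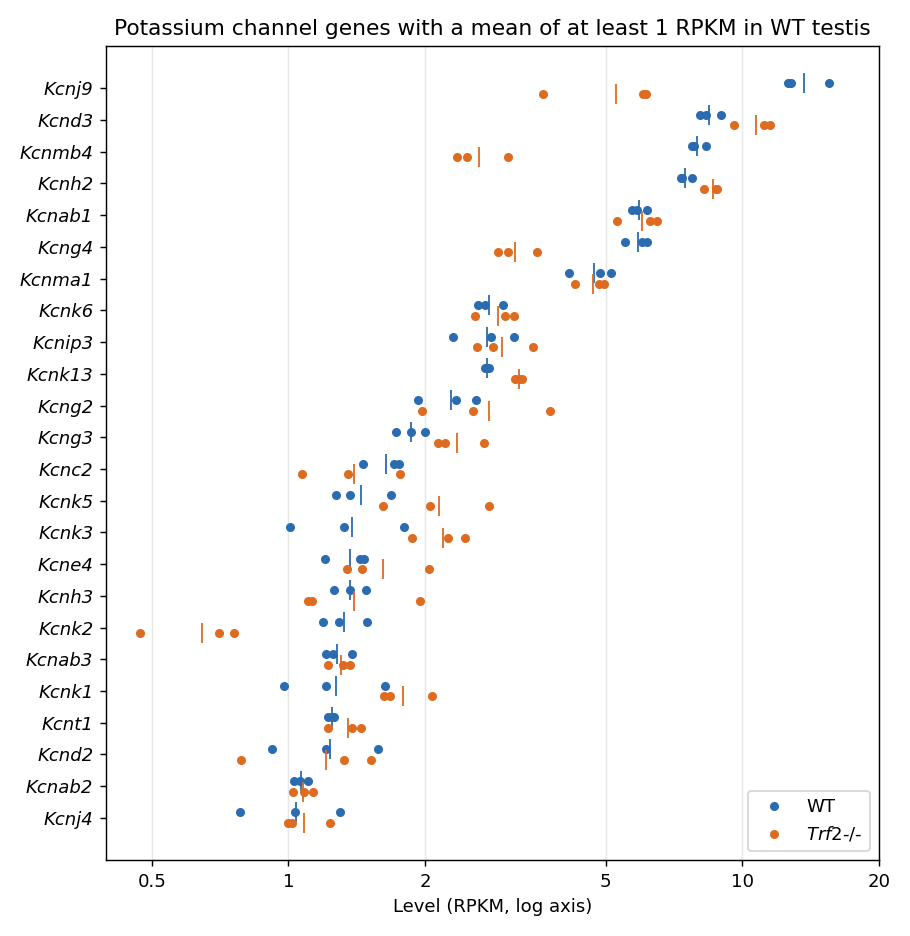
Level in RPKM (log axis) of 24 potassium channel genes with a mean of at least 1 RPKM in WT testis, ordered by that mean, with 1 point per mouse and a short line at the mean of each genotype. Kcnj9, Kcnmb4, Kcng4 and Kcnk2 show Trf2-/- mice well to the left of WT mice, and most other genes show the genotypes together.

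Some subfamilies had their highest member at a low level. The highest Kv1 pore was Kcna3 at 0.671 RPKM, the highest KCNQ pore Kcnq3 at 0.800, and the highest small-conductance calcium-activated pore Kcnn1 at 0.445. Kcns1 led the Kcns silent modifiers at 0.687 RPKM and Kcnv2 the Kcnv modifiers at 0.270. Kcnc2, a fast Kv3 pore, was at 1.64 RPKM, Kcne4, a single-span beta subunit, at 1.37, and Kcnt1, a sodium-activated pore, at 1.24.

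The BK channel is a large-conductance pore, encoded by Kcnma1, that opens with voltage and intracellular calcium, and beta subunits slow or shift its gating. Kcnmb4 had 794, 678 and 537 counts in WT against 197, 236 and 130 in Trf2-/- testis. This gave 27.7, 26.0 and 25.8 CPM in WT mice against 7.82, 10.1 and 8.22 CPM in Trf2-/- mice. Every Trf2-/- mouse was below every WT mouse by a wide margin. The log2 fold change was -1.60 (SE 0.11), a 3.03-fold lower level, with an adjusted p of 0.000153 by edgeR's quasi-likelihood test, and it ranked 13 by p among the 16924 genes tested. The gene lies at chr10:115854917-115910934 on NCBIM37. The call was kept under all 12 alternative settings, with log2 fold changes between -1.75 and -1.51.

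Kcnma1 itself had 662, 515 and 509 counts in WT and 595, 475 and 364 counts in Trf2-/- mice, and its levels of 23.1, 19.7 and 24.4 CPM in WT overlapped those of 23.6, 20.4 and 23.0 CPM in Trf2-/- mice. No difference was detected, with an adjusted p of 0.979 and a 95% interval of the log2 fold change from -0.20 to 0.19. The sign of this value near 0 turned with the scaling, being 0.091 with library size alone. The ratio of Kcnmb4 to Kcnma1 in RPKM was 1.72, 1.88 and 1.51 in WT mice and 0.474, 0.711 and 0.511 in Trf2-/- mice. Thus each WT mouse had more of the beta subunit transcript per length than of the pore transcript, and each Trf2-/- mouse had less. The other beta subunits did not approach Kcnmb4, since Kcnmb1 had 9, 8 and 5 counts in WT and 9, 8 and 8 in Trf2-/- mice, Kcnmb2 at most 2 in any mouse, and Kcnmb3 6, 10 and 7 in WT and 8, 2 and 1 in Trf2-/- mice. Kcnmb3 reached 0.430 RPKM in WT from these few counts because its tabulated length is only 720 bases, and it was not tested.

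Reads of Kcnmb4 can be shared with genes on the opposite strand. In the NCBIM37 annotation 1048 of its 3324 exon bases, 31.5%, overlap exons of 1700058G18Rik or 4933400F03Rik. 1700058G18Rik fell by 0.90 on the log2 scale (SE 0.16, adjusted p = 0.00283) and 4933400F03Rik fell by 1.13 (SE 0.19, adjusted p = 0.00235) in the same edgeR fit. The library kit marks strand, but the strand setting of the counting is not given in the sources used here. How far reads of these genes were kept apart was not tested. The level of Kcnmb4, its fold change and its ratio to Kcnma1 all rest on the counts as deposited.

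Kcnj9 encodes GIRK3, an inward rectifier subunit that is opened by G protein beta-gamma subunits and in other tissues works in heteromers with the products of Kcnj3, Kcnj5 or Kcnj6. It had 1458, 1091 and 860 counts in WT and 499, 467 and 188 counts in Trf2-/- mice. In RPKM this was 15.5, 12.8 and 12.6 in WT against 6.05, 6.12 and 3.63 in Trf2-/- mice, with no overlap. The log2 fold change was -1.35 (SE 0.17), a 2.55-fold lower level, with an adjusted p of 0.000808 by edgeR's quasi-likelihood test, at chr1:174251164-174259394 on NCBIM37. Its usual partners were near the floor, with Kcnj3 at 1, 3 and 3 counts in WT and 1, 0 and 0 in Trf2-/- mice. Kcnj5 had 1, 3 and 2 counts in WT and 6, 2 and 3 in Trf2-/- mice. Kcnj6 had 5, 6 and 2 counts in WT and 5, 3 and 0 in Trf2-/- mice. Per length, the highest WT mean of these 3 was 0.0285 RPKM, for Kcnj6, beside 13.6 RPKM for Kcnj9.

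Kcnj9 made up a large share of the summed level of the group. Summed over all 93 genes, the level was 99.0, 94.3 and 98.3 RPKM in WT and 88.5, 86.0 and 84.7 RPKM in Trf2-/- mice. Kcnj9 made up 15.7%, 13.5% and 12.8% of that sum in WT and 6.84%, 7.12% and 4.29% in Trf2-/- mice. The 15 inward rectifiers together went from 17.1 ± 1.87 to 9.06 ± 1.29 RPKM, and none of the other 6 tested was called. Kcnj8 and Kcnj11, pores of ATP-sensitive channels, had log2 fold changes of 0.22 and 0.33 with adjusted p of 0.431 and 0.511, and Abcc8 and Abcc9, the sulfonylurea receptors that complete these channels, had -0.01 and 0.13 with adjusted p of 0.951 and 0.496.

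**Figure D2:**
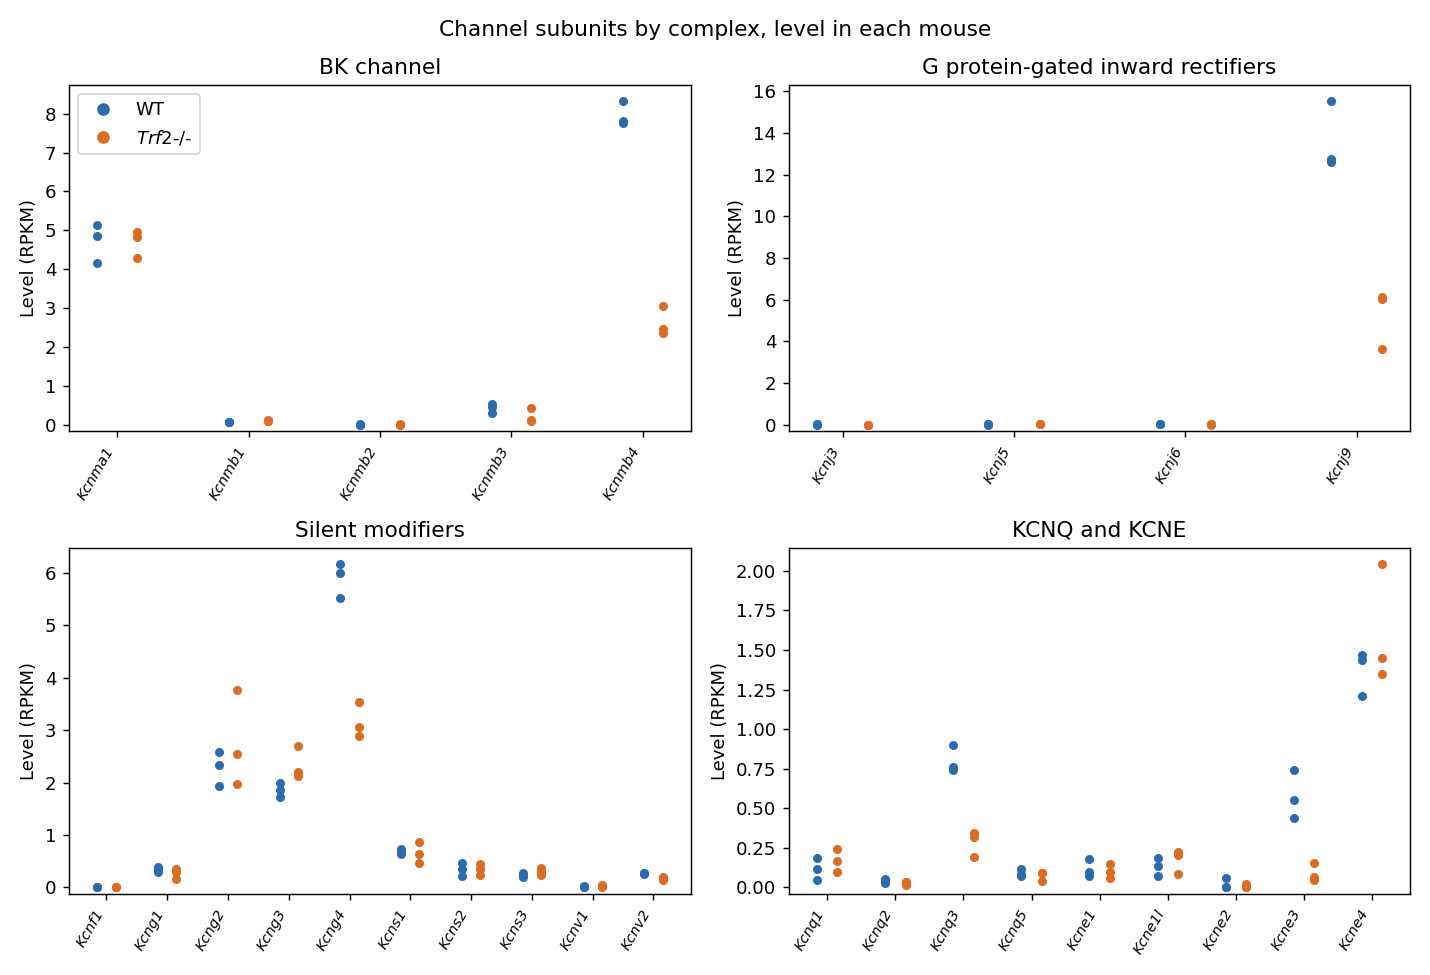
Level in RPKM in each mouse for subunits grouped by complex, in panels for the BK channel, the G protein-gated inward rectifiers, the silent modifiers, and the KCNQ pores with KCNE subunits (each panel has its own linear axis from 0). Kcnmb4 lies above Kcnma1 in WT mice and below it in Trf2-/- mice, and Kcnj3, Kcnj5 and Kcnj6 lie near 0 beside Kcnj9.

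Among silent modifiers Kcng4 had 603, 597 and 490 counts in WT and 339, 271 and 174 counts in Trf2-/- mice, or 5.52, 6.01 and 6.18 RPKM against 3.53, 3.05 and 2.89 RPKM. The genotypes did not overlap. The log2 fold change was -0.89 (SE 0.10), a 1.86-fold lower level, with an adjusted p of 0.00051 by edgeR's quasi-likelihood test, at chr8:122147754-122159580 on NCBIM37. Kcnv2, another modifier of Kv2 channels, was called at the edge of the threshold with a log2 fold change of -0.69 (SE 0.23, adjusted p = 0.0476), and 9 of 12 alternatives lost that call, with adjusted p up to 0.185. The other Kcng modifiers were not called, with log2 fold changes of -0.31 for Kcng1, 0.25 for Kcng2 and 0.33 for Kcng3.

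Among voltage-gated pores 2 fell. Kcnq3, a KCNQ pore known for the neuronal M-current, had 56, 52 and 49 counts in WT and 21, 21 and 8 counts in Trf2-/- mice, or 1.95, 1.99 and 2.35 CPM against 0.833, 0.901 and 0.506 CPM. All Trf2-/- mice were below all WT mice, and the log2 fold change was -1.44 (SE 0.24, adjusted p = 0.00253 by edgeR's quasi-likelihood test). Kcnc1, a fast Kv3 pore, had 170, 128 and 110 counts in WT and 83, 54 and 38 counts in Trf2-/- mice, again with no overlap. Its log2 fold change was -0.995 (SE 0.18, adjusted p = 0.00317), a 1.99-fold lower level, so it missed the 2-fold limit by a small margin. Kcnc2, the more abundant Kv3 transcript, had -0.22 with an adjusted p of 0.350. Among other KCNQ pores Kcnq1 and Kcnq5 had log2 fold changes of 0.51 and -0.22 and adjusted p of 0.459 and 0.647.

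Kcne3, a single-span beta subunit best known for holding the KCNQ1 channel open in epithelia, showed the largest fold change of the 56 genes. It had 28, 19 and 12 counts in WT and 5, 2 and 1 counts in Trf2-/- mice, a level of 0.760 ± 0.202 against 0.116 ± 0.0724 CPM (SD, n = 3 each). The log2 fold change was -2.59 (SE 0.45, adjusted p = 0.00296 by edgeR's quasi-likelihood test), with a 95% interval from -3.48 to -1.71. The counts in 2 of the Trf2-/- mice were at or under the floor of 3, so the size of the fall is loosely held, and it ranged from -3.26 to -2.36 over the alternatives. Kcnq1, its usual pore, had 10, 15 and 3 counts in WT and 19, 7 and 8 in Trf2-/- mice, a WT mean of 0.115 RPKM beside 0.578 RPKM for Kcne3. Kcne4 had a higher WT level, 1.37 RPKM, and a log2 fold change of 0.25 with an adjusted p of 0.344, Kcne1 had at most 12 counts in any mouse, and Kcne2 at most 3.

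Kcnk2 encodes TREK-1, a tandem-pore-domain leak channel that responds to stretch, heat and lipids. It had 155, 122 and 90 counts in WT and 64, 64 and 27 counts in Trf2-/- mice, or 5.40, 4.67 and 4.32 CPM against 2.54, 2.74 and 1.71 CPM, with no overlap. The log2 fold change was -1.02 (SE 0.19, adjusted p = 0.00441 by edgeR's quasi-likelihood test), a 2.03-fold lower level. Kcnk3, the acid-sensitive leak channel TASK-1, went the other way. It had 110, 132 and 143 counts in WT and 235, 200 and 113 counts in Trf2-/- mice, or 3.83, 5.06 and 6.86 CPM against 9.32, 8.58 and 7.14 CPM. The groups were separated by a narrow gap, with a log2 fold change of 0.69 (SE 0.20, adjusted p = 0.0317), a 1.61-fold rise, and 5 of 12 alternatives lost the call, with adjusted p up to 0.104. The other 4 tested genes of this class were not called. Their log2 fold changes were 0.06 for Kcnk6, 0.23 for Kcnk13, 0.49 for Kcnk1 and 0.58 for Kcnk5.

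Kcnn3, a small-conductance calcium-activated pore gated through bound calmodulin, had 20, 22 and 21 counts in WT and 8, 4 and 10 counts in Trf2-/- mice. The mice did not overlap, and the log2 fold change was -1.26 (SE 0.41, adjusted p = 0.0456 by edgeR's quasi-likelihood test). Of the alternatives 7 of 11 lost the call, with adjusted p up to 0.120. Its relatives were not called, Kcnn1 with a log2 fold change of -0.10 and Kcnn2 with 0.66, for which the 95% interval ran from -0.21 to 1.52. Kcnn4 had 3, 4 and 5 counts in WT and 7, 9 and 6 in Trf2-/- mice and was not tested.

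Besides Kcnk3, the genes that rose were Kcnd3, Kcnh2 and Kcna3. Kcnd3 had levels of 61.3, 63.1 and 68.1 CPM in WT and 84.6, 72.9 and 87.3 CPM in Trf2-/- mice, a 1.27-fold rise with no overlap, and its log2 fold change of 0.35 (SE 0.08, adjusted p = 0.00899 by edgeR's quasi-likelihood test) was called under all 12 alternatives. Kcnh2 had 37.5, 35.7 and 35.6 CPM in WT and 39.8, 42.5 and 42.6 CPM in Trf2-/- mice, a 1.15-fold rise with a log2 fold change of 0.20 (SE 0.06, adjusted p = 0.0291). That call was lost under 5 of 12 alternatives, with adjusted p up to 0.101. Kcna3, the Kv1 pore known from lymphocytes, had 1.05, 1.19 and 1.73 CPM in WT and 2.50, 1.72 and 2.97 CPM in Trf2-/- mice. One Trf2-/- mouse lay within the WT range, the log2 fold change was 0.86 (SE 0.27, adjusted p = 0.0404), a 1.82-fold rise, and 4 alternatives, each leaving out 1 mouse, lost the call, with adjusted p up to 0.142. Beside these rises, summed Sertoli markers were higher in every Trf2-/- mouse than in every WT mouse, with 3 of 6 called. So were those of spermatogonia, at 169 to 177 CPM in WT and 187 to 237 CPM in Trf2-/- mice with 1 of 6 called, and of endothelial cells, at 32.4 to 36.3 and 39.2 to 48.5 CPM with 1 of 5 called. Summed macrophage markers overlapped between genotypes, with 3 of 5 called. The part of these cells in the rises was not tested.

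**Figure D3:**
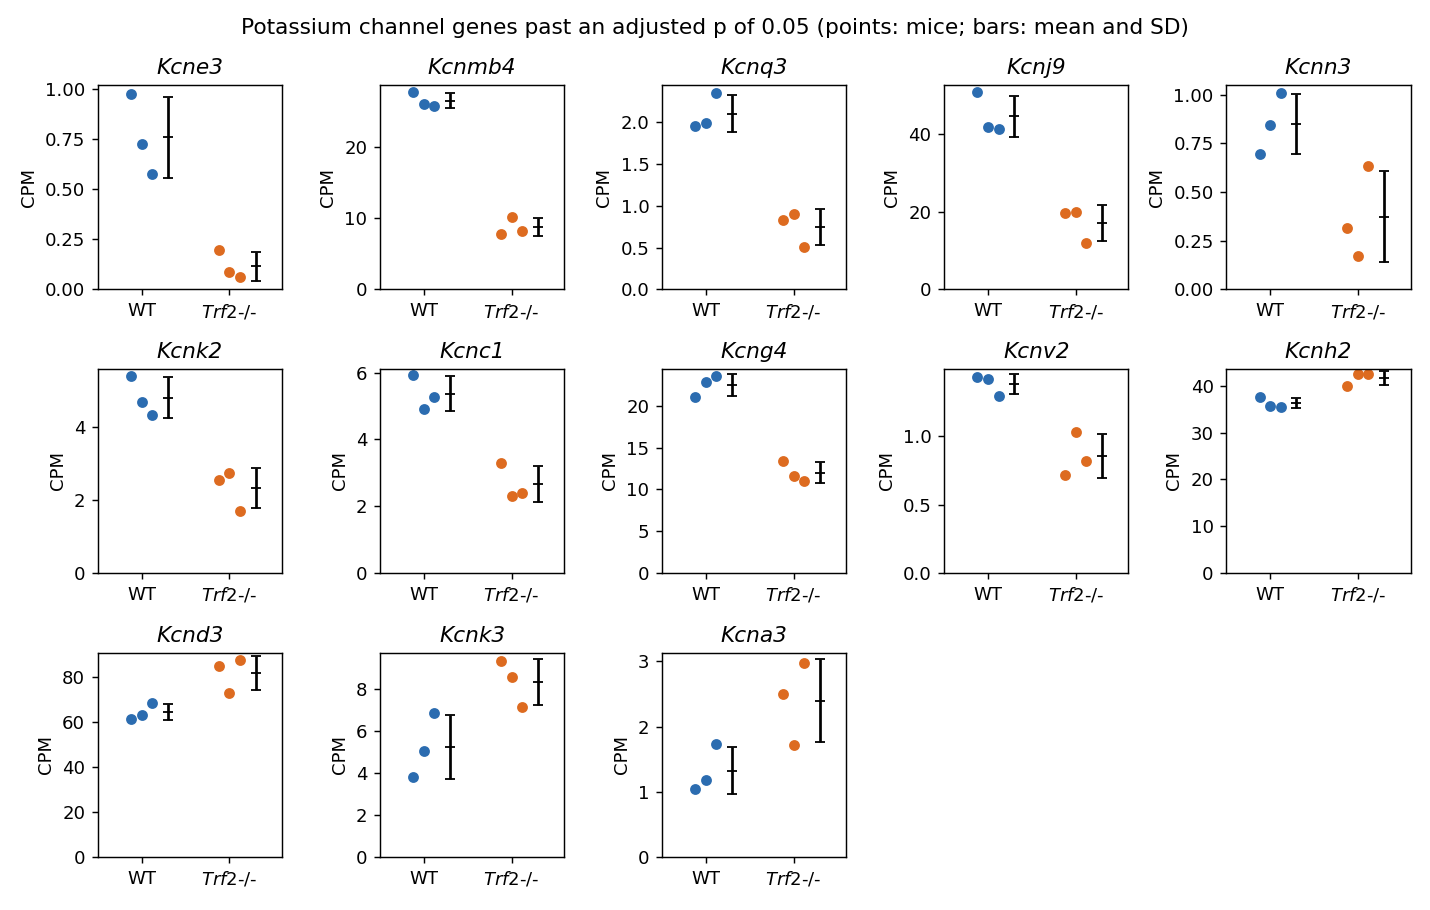
Level in CPM of the 13 potassium channel genes past an adjusted p of 0.05, 1 panel per gene with its own linear axis from 0, with points for mice and bars for the mean and SD of each genotype (n = 3). In the 9 genes that fell every Trf2-/- mouse lies below every WT mouse, and Kcna3 is the panel in which the genotypes overlap.

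The shares called were read beside those of all 16924 genes tested. The 16.1% that fell and 7.14% that rose were below the shares of 20.2% and 11.2% over all genes, with no test of the difference. With a limit of 2-fold, 6 genes fell (Kcne3, Kcnmb4, Kcnq3, Kcnj9, Kcnn3 and Kcnk2), 10.7% beside 4.30% of all genes, and 0 rose, beside 0.609%. The count of 6 ranged from 4 to 6 over the alternatives. It was 4 with at least 10 counts in every mouse, a setting that left out Kcne3, Kcnq3 and Kcnn3 for their low counts. The difference between 10.7% and 4.30% was not tested. The 2 genotypes were fully separated for 12 genes lower in Trf2-/- mice, 21.4% beside 26.8% of all genes, and for 7 higher, 12.5% beside 22.3%. The median log2 fold change was 0.02 over the 56 genes and 0.04 over all genes. With library size as the only scaling, which moved the median of all genes to 0.13, the split of calls was 8 lower and 8 higher in place of 9 and 4, and at that setting 15.9% of all genes were called lower and 25.2% higher.

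**Figure D4:**
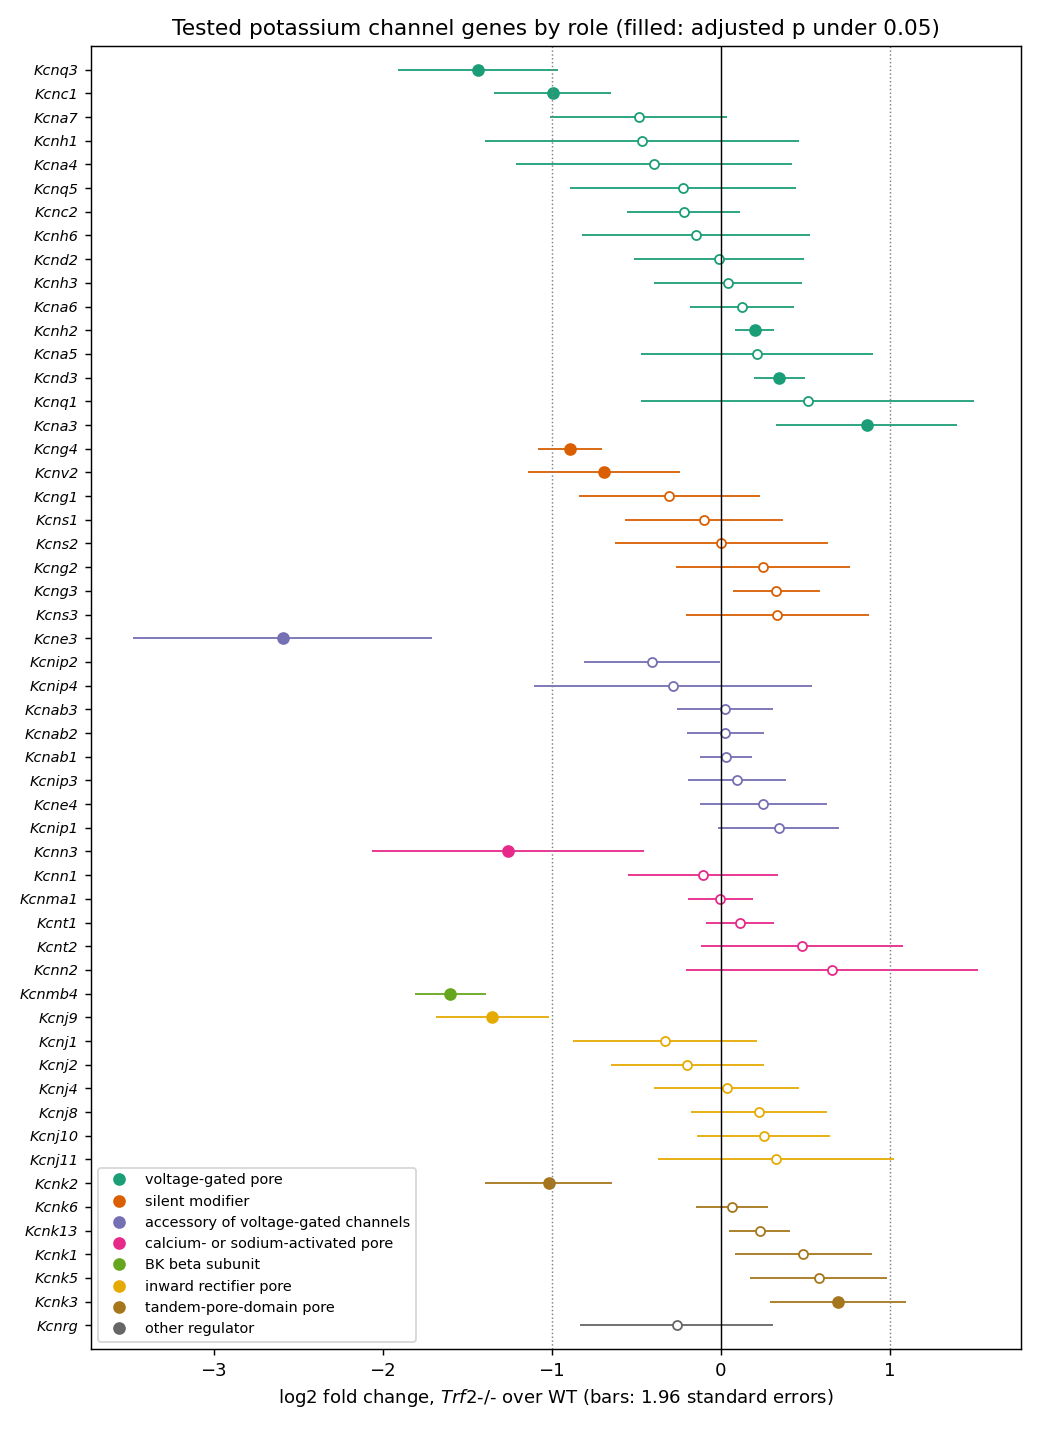
Log2 fold change of Trf2-/- over WT for 54 of the 56 tested potassium channel genes, grouped by role. Bars are 95% intervals from the normal quantile, narrower than the test implies, and filled points have an adjusted p under 0.05. Dotted lines mark 2-fold changes, and 6 filled points lie left of the lower line, with none right of the upper line.

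By role the calls were spread thinly. Of 18 voltage-gated pores tested 2 fell and 3 rose, of 8 silent modifiers 2 fell, of 9 accessory genes 1 fell, of 6 pores opened by calcium or sodium 1 fell, of 7 inward rectifiers 1 fell, of 6 tandem-pore-domain channels 1 fell and 1 rose, and the single BK beta subunit tested fell. The 43 genes not called had log2 fold changes between -0.49 and 0.66, of which 26 were above 0 and 17 below. Among them the genotypes did not overlap for 7, 3 lower and 4 higher in Trf2-/- mice. Over all 16924 genes tested, called or not, 26.8% were separated as lower and 22.3% as higher. Kcnip2 and Kcna7 were among the 3 lower, and Kcnk13, Kcng3 and Kcnip1 among the 4 higher. These genes are named here for that reason, after their values were seen.

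Proteins that work with potassium channels were read from a list of 20 partner genes, of which 19 were found and 14 tested. Of these 14, 3 fell and 0 rose, beside 20.2% and 11.2% of all genes tested, and the median log2 fold change was 0.01. Dpp10, a partner of Kv4 pores such as the one encoded by Kcnd3, had 155, 152 and 131 counts in WT and 52, 69 and 21 counts in Trf2-/- mice, with a log2 fold change of -1.42 (SE 0.23, adjusted p = 0.00228 by edgeR's quasi-likelihood test). Calm3, which encodes calmodulin, fell by 0.32 on the log2 scale with an adjusted p of 0.000893, and Calm2, which encodes the same protein, had a log2 fold change of 0.04 with an adjusted p of 0.566. The Kv4 partners among the members, Kcnip1 to Kcnip4, were not called. Of 16 potassium transporter genes 14 were tested, 0 fell and 2 rose, beside the same shares of all genes, with a median of -0.01. Atp1b2, a beta subunit of the sodium-potassium pump, rose with a log2 fold change of 0.38 (adjusted p = 0.0354).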

How the data were processed

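Total RNA of whole testis from 3 WT and 3 Trf2-/- mice was depleted of ribosomal RNA, made into stranded libraries and sequenced as single-end reads of 50 bases. The authors deposited raw counts per gene, made on mm9 (NCBIM37). The submitters' processing notes name CASAVA 1.8.2, TopHat2 2.0.10, Bowtie2 2.1.0, HTSeq 0.5.4p3 and DESeq2 1.0.19. The annotation release, strand setting and treatment of shared reads are not given in the sources used here. The table also holds 12 columns of normalized values, some divided by gene length, that were not used.

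Genotype effects were tested on all genes with edgeR 4.0.16 in R 4.3.3 (TMM factors, filterByExpr by genotype, quasi-likelihood test, Benjamini-Hochberg adjustment), and calls were made at an adjusted p of 0.05 and counted again with a 2-fold limit. The study's own tool, DESeq2 (1.42.0 here), was an alternative. The standard error is the log2 fold change divided by the square root of F, and intervals at a level of 95% use the normal quantile. Such intervals are narrower than the quasi-likelihood test implies. Kcnip2, for example, had an interval from -0.81 to -0.007 with an unadjusted p of 0.078 by that test. CPM used TMM-scaled library sizes, and RPKM divided CPM by the tabulated gene length. The fit was tested on simulated data. No pairing of the mice by replicate number was seen. Alternatives were the DESeq2 size factors, library size alone, DESeq2's Wald test, no filter, at least 10 counts in every mouse, a replicate block, leaving out each mouse, and an adjusted p of 0.01.

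The members and lists were chosen with earlier results of these data known, including the fall of Kcnmb4. Genes named with values were those past the adjusted p, the 10 highest in WT RPKM, the highest of each subfamily, and subunits that assemble with a called one. Kcnj8, Kcnj11, Abcc8, Abcc9, Kcng1, Kcng2, Kcng3, Kcnk1, Kcnk5 and Calm2 were added after their values were seen. Markers of endothelial cells, peritubular cells and spermatogonia each had 1 member higher and none lower. Those of neurons, red blood cells and epididymis had none called. The epididymis markers varied widely between mice, summing to 0.0697 to 8.62 CPM in WT and 0.0632 to 51.9 CPM in Trf2-/- mice. With that spread the lack of a call does not show equal levels. The part of such tissue in the other values was not tested. Coordinates of genes are NCBIM37 and those of RefSeq promoter windows GRCm38.p6. A few genes counted among the members or lists are not reported by name here.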

Additional observations from a re-analysis of the deposited data

How the results depend on the processing

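The number of potassium channel genes called higher, 4 in the report, was 8 with library size alone (25.2% of all genes), 1 at an adjusted p of 0.01 (2.84%), and 2 to 3 when a mouse was left out (4.71% to 10.7%), and 0 to 1 of them, Kcna3, reached 2-fold. No pairing of the mice by replicate number was seen. Deviations from the genotype mean correlated at -0.10, -0.03 and -0.10 for same-numbered mice and at -0.03 to 0.11 for the other pairs. Deviations centred over 3 mice cannot exclude a small shared effect. With the replicate number as a block 7 genes were lower and 2 higher (18.3% and 8.78% of all genes). Asking for at least 10 counts in every mouse left 43 of the 93 genes to test. Of these, 6 were lower, beside 20.5% of the 15525 genes tested at that setting. By at least 1 RPKM in each WT mouse 22 genes counted as expressed, in place of 52. The log2 fold change of Kcnma1 changed sign, being 0.091 with library size alone and -0.088 to 0.060 when a mouse was left out. Kcnmb4, Kcng4, Kcnj9, Kcnq3, Kcne3, Kcnc1, Kcnk2 and Kcnd3 kept direction and call under every alternative that gave a value. Kcnq3, Kcne3 and Kcnn3 had no value with at least 10 counts in every mouse. Kcnh2, Kcnk3, Kcna3, Kcnn3 and Kcnv2 lost the call under some, and without WT mouse 2 all 5 did. The cause was not tested. Too few reads were present to test 37 of the 93 genes.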
